A study of Mus musculus with 4 samples.

Results

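Vascular smooth muscle cells of the mouse brain were examined for differences with age and with dietary fiber. A cell barcode passed the gate for smooth muscle when it held at least 1000 unique molecular identifiers (UMIs, 1 per captured RNA molecule), at most 15.8% of them mitochondrial, and at least 20 UMIs summed over *Acta2* (smooth muscle actin), *Tagln* (transgelin) and *Myh11* (smooth muscle myosin heavy chain). It also held at most 10 UMIs of the endothelial genes *Cldn5*, *Flt1* and *Ly6c1* together, and at most 10 of the fibroblast genes *Dcn*, *Lum* and *Col1a1* together. This gate took 656 of the 36876 barcodes, and 30941 barcodes were within the UMI minimum and the mitochondrial limit. The gate used measured counts, so the levels of its 9 genes and the contrast of gated with other cells are given as description without a test.

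Vascular smooth muscle cells wrap arteries and arterioles in a contractile layer and set vessel diameter. They contract through an actin and myosin apparatus that calcium entry and kinase signalling switch on, and they answer to endothelin, nitric oxide, prostanoids and noradrenaline. In the brain they grade into pericytes along the arteriole to capillary transition, and in old or injured vessels they can shift from contraction toward secretion of matrix and inflammatory signals.

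Whole brains of 4 male C57BL/6J mice were dissociated with an enzyme kit, depleted of myelin and dead cells, and captured with droplet 3′ chemistry, 1 mouse for each combination of age and diet. At the start of feeding adult mice were aged 3 to 4 and aged mice 23 to 24 months, and the low fiber and high fiber diets held 0% and 5% inulin, a fermentable fiber, each beside 1% cellulose. No genotype or allele separated the mice. With 2 adult and 2 aged mice, diets pooled, an exact two-sided permutation test over mice cannot go below p = 0.333, and any diet effect of 1 age rests on 1 mouse per diet.

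The adult low fiber mouse gave 151 gated barcodes with 2207738 UMIs. The adult high fiber mouse gave 178 with 2436522, the aged low fiber mouse 185 with 3275058, and the aged high fiber mouse 142 with 1910183. Of the barcodes within limits they were 1.92% (exact 95% binomial interval 1.63 to 2.25), 2.08% (1.79 to 2.40), 2.79% (2.41 to 3.21) and 1.81% (1.52 to 2.12), intervals that cover counting error only. The aged mice held both the highest and the lowest share, so the ages overlapped, with 2.00% ± 0.114 (SD, n = 2) for the adult and 2.30% ± 0.696 for the aged pair (exact permutation p = 1). Of these barcodes, 12 carried a barcode sequence that also occurred in another mouse, and 0 sequences passed the gate in 2 mice.

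The label was checked against the data before any comparison, and part of the gated barcodes did not carry smooth muscle profiles. The gate has no upper UMI limit, so a very deep barcode can reach 20 contractile UMIs with a small share of them. The contractile share, the percent of a barcode's UMIs from *Acta2*, *Tagln* and *Myh11*, had a median of 2.68% and ran from 0.0241 to 7.06%. Under 0.25% lay 79 barcodes with a median of 37498 UMIs, led by *Nnat*, *Dbi*, *Mt3*, *Tmem212* and *Ccdc153*, the last pair being markers of ependymal cells, which line the ventricles. Between 0.25 and 0.5% lay 19 barcodes led by *Enpp2*, *Ttr* and *Kcnj13*, genes of the choroid plexus, and between 0.5 and 1% lay 38 led by *Cd74*, *Vtn*, *Ptn* and *Aldoc*. Between 1 and 2% lay 102 barcodes, 36 and 31 in adult and 16 and 19 in aged mice, led by *Spp1*, *Rgs5*, *Lyz2* and *Vtn*, with the microglial *Tyrobp* and *C1qa* among the leading 10.

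Together, 136 barcodes (20.7%) had under 1% contractile UMIs, yet they held 44.4% of all UMIs of the gate. Ependymal markers outnumbered the 3 contractile genes in 66 of the 656 barcodes, all 66 of them under 1%, and choroid plexus markers did so in 25, of which 17 lay under 1%. Pericyte markers did so in 57, of which 33 lay under 1%, and markers of some other class did so in 174, of which 133 did, so the 1% division removed most and not all of them. The 520 barcodes with at least 1% numbered 116, 126, 156 and 122 in the adult low, adult high, aged low and aged high fiber mouse. The 136 others numbered 35, 52, 29 and 20, which were 0.444, 0.607, 0.437 and 0.254% of the barcodes within limits. The low fiber mice of both ages were thus close to each other, and the means were 0.526% ± 0.115 for the adult and 0.346% ± 0.129 for the aged pair (SD, n = 2, exact permutation p = 0.333, the smallest possible). Each main result is therefore given over all 656 barcodes and again over the 520, a division chosen after these values were seen. Within the 520 barcodes the share of barcodes did not overlap between the ages, at 1.47 and 1.47% in adult and 2.35 and 1.55% in aged mice (exact permutation p = 0.333).

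**Figure D1:**
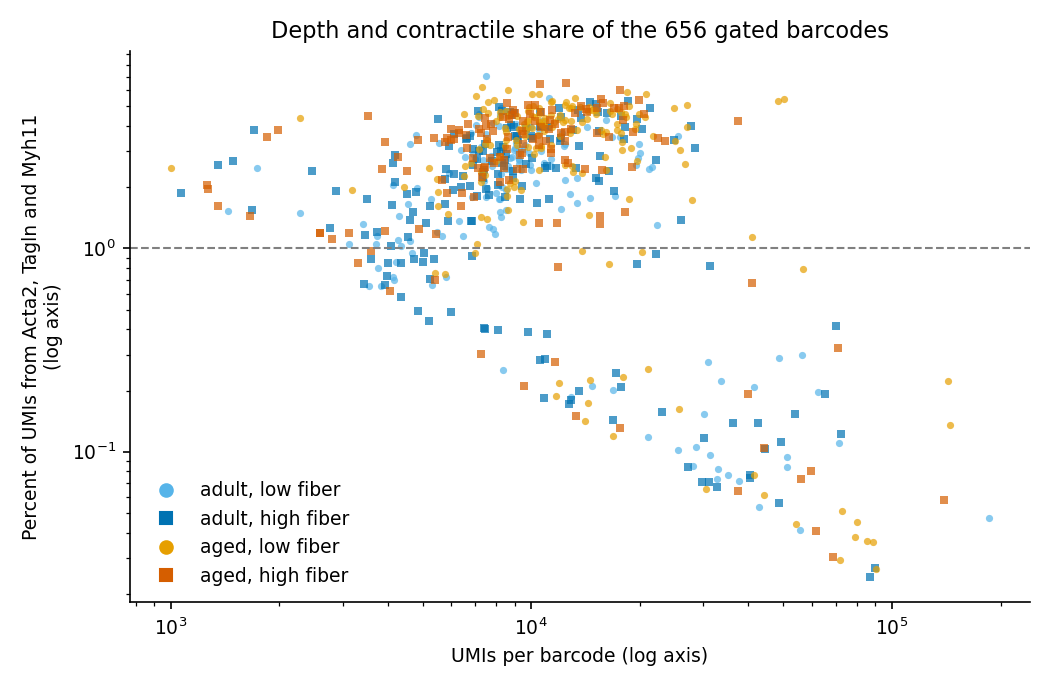
UMIs per barcode against the percent of them from *Acta2*, *Tagln* and *Myh11*, both on log axes, for the 656 gated barcodes coloured by mouse. The dashed line marks 1%. Most barcodes sit above it near the median of 9142 UMIs, and a tail of 136 barcodes, many of very high depth, runs below it in all 4 mice.

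In CPM (UMIs of a gene per 1000000 UMIs of the summed barcodes, without scaling between libraries), *Acta2* stood at 6907, 8147, 10940 and 10994 over all gated barcodes of the adult low, adult high, aged low and aged high fiber mouse. Over the 520 barcodes it stood at 13215, 15192, 17503 and 16855, against 1014 ± 166 (mean ± SD, n = 4 mice) in the 136 others and 17.5 ± 2.29 in a gate of 9612 endothelial barcodes. *Tagln* averaged 13374 ± 2553 and *Myh11* 4654 ± 408 CPM over the 520 barcodes. The genes that the gate kept low stood there at 39.8 ± 5.49 (*Cldn5*), 33.7 ± 2.19 (*Flt1*), 53.8 ± 13.3 (*Ly6c1*), 3.35 ± 1.52 (*Dcn*), 0.334 ± 0.407 (*Lum*) and 3.19 ± 2.40 CPM (*Col1a1*). At the edge of the gate, 37 barcodes held 20 to 24 contractile UMIs, of which 4 had a share of at least 1%, and 60 held 15 to 19 while meeting the other limits, of which 6 did.

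In sum over the 520 barcodes, genes of contractile mural cells outside the rule stood far above their level in pericytes, although the barcodes of 1 to 2% were led by other genes. The leading gene by fold, with levels in pericytes set to no less than 3 UMIs, was *Cnn1*, which encodes calponin 1, an actin-binding protein of differentiated smooth muscle, with 431 ± 240 CPM (SD, n = 4 mice) against 2.50 CPM in 515 pericyte barcodes that held at least 0.5% of their UMIs from *Vtn*, *Higd1b* and *Kcnj8*, a level that rests on 4 UMIs. *Pln*, the phospholamban that restrains the sarcoplasmic calcium pump, stood at 1500 ± 134 against 10.1 CPM, a 148-fold difference. *Palld*, an actin-bundling protein, stood at 1032 ± 127 against 14, *Sorbs2*, an adaptor of stress fibers, at 1262 ± 222 against 15, and *Fbxl22* at 244 ± 24.8 against 0.542 CPM, the last resting on 1 pericyte UMI. *Myocd*, the myocardin coactivator of smooth muscle genes, stood at 80.1 ± 16.1 against 1.28 CPM, the latter from 3 UMIs. The pericyte gene *Rgs5* ran the other way, at 1609 ± 799 against 6450 CPM.

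Other cell types left RNA in these barcodes as well. Over all 656 barcodes the 7 choroid plexus markers summed to 61289, 15956, 35468 and 16938 CPM in the 4 mice, with *Ttr* (transthyretin) the most abundant at 30101 CPM, and over the 520 to 5319, 3841, 1904 and 2495. Pericyte markers, 12 genes led by *Rgs5*, summed over the 520 barcodes to 5557, 3888, 2836 and 3078 CPM, lower in both aged mice. Microglia markers, 13 genes led by *C1qa*, summed there to 781, 1203, 1595 and 1612 CPM, higher in both aged mice, and astrocyte markers, 10 genes, to 4688, 4108, 3898 and 3996 CPM. Ependymal markers summed to 262, 275, 305 and 353 CPM, endothelial markers to 281, 332, 241 and 311, fibroblast markers to 412, 315, 293 and 293, neuronal markers to 841, 892, 843 and 864, and erythroid markers to 53.6, 131, 83.6 and 68.9. Oligodendrocyte markers stayed under 100 CPM in sum in each mouse with *Mog* at 0, and lymphocyte markers were at or near 0, with *Cd3e* and *Cd79a* at 0. How far RNA of other cells set the age differences was not tested except where a value below bears on it.

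Of the gene lists, immediate early genes had most of their tested members called higher in aged mice in both sets of barcodes, and interferon-response genes did over all barcodes. Smaller numbers of matrix genes were called higher, and a few ion channel, chaperone and astrocyte genes were called lower. Sums of UMIs per mouse were tested with edgeR's quasi-likelihood test, and a gene was called at a Benjamini-Hochberg adjusted p under 0.05 and a fold of over 1.5. Over all 656 barcodes 253 of 12297 genes were called higher in aged mice (2.06%) and 111 lower (0.903%), and over the 520 barcodes 212 of 9233 were called higher (2.3%) and 144 lower (1.56%). Of the genes called over all barcodes and tested in both, 219 of 220 higher and 74 of 74 lower genes kept their sign over the 520, and 142 and 47 were called again. The counts fell to 0 and 0 when the gate was raised to 50 contractile UMIs, where 1098 genes had an unadjusted p under 0.05. The list medians given below for all barcodes were much the same there for contractile (0.62), immediate early (0.94) and matrix genes (0.36), and smaller for interferon genes (0.94). From here on, CPM values are scaled by trimmed mean of M values (TMM), and log2 fold changes are aged over adult with their standard error.

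**Figure D2:**
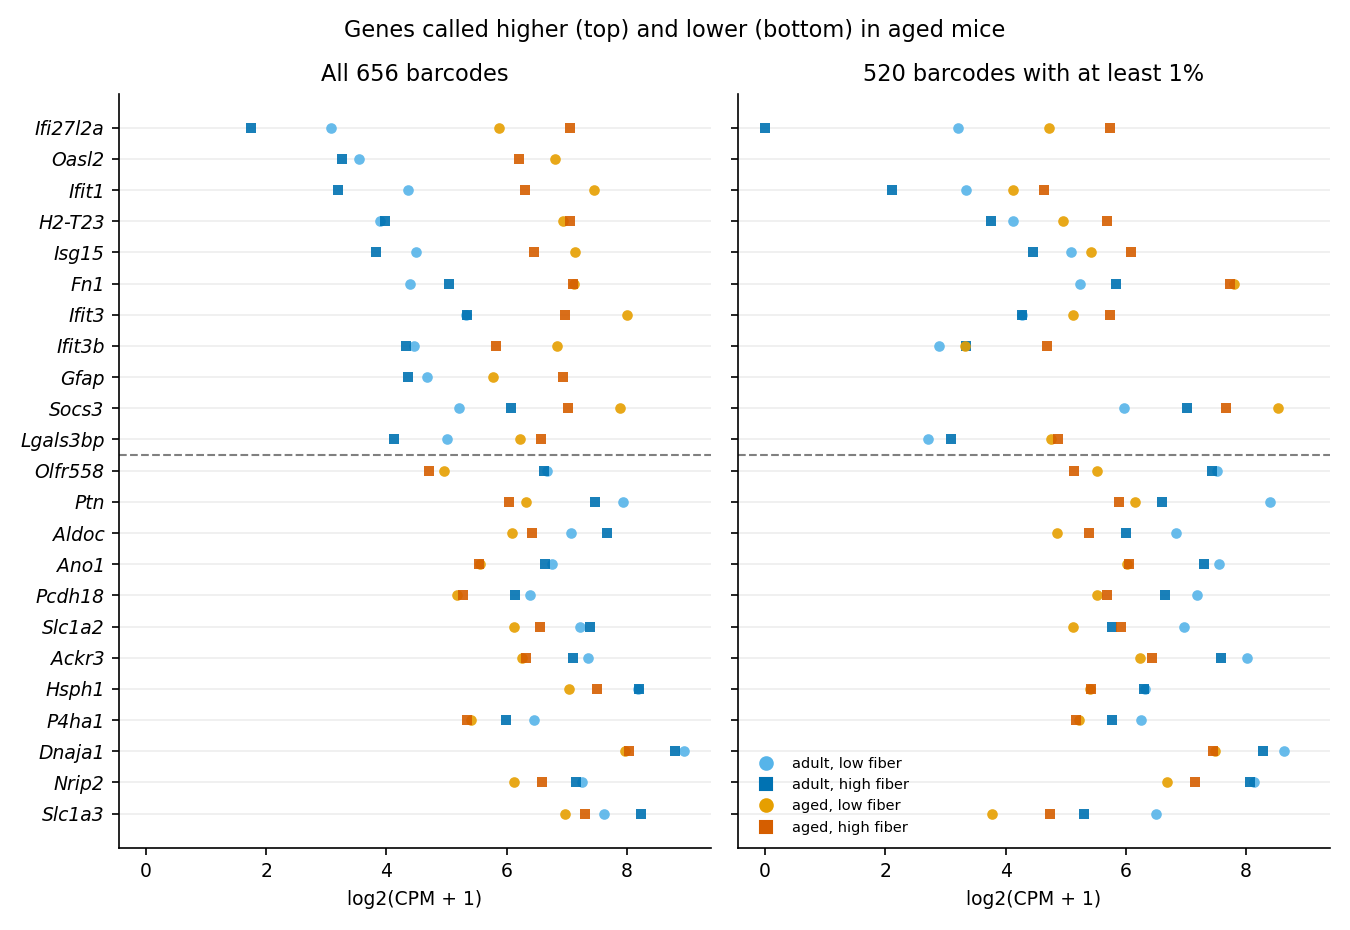
TMM-scaled CPM, as log2(CPM + 1), of 11 genes called higher (above the dashed line) and 12 called lower in aged mice, among those with the largest fold over all 656 barcodes, in each of the 4 mice, for all barcodes and for the 520 with at least 1% contractile UMIs. *Oasl2* and *Gfap* were too low to be tested in the 520 and have no points there. *Fn1* and *Olfr558* keep their distance between the ages in both panels, while those of *Ifit3b* overlap in the right one.

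Genes of the interferon response and of MHC class I, which displays peptides to T cells, held the largest age difference over all barcodes. Of 30 tested members 21 were called higher in aged mice and 0 lower, with a list median log2 fold change of 1.43 against 0.0005 over all genes. Over the 520 barcodes 10 of 25 were called higher and 0 lower, with a median of 0.76. The summed level of the list (CPM without scaling) shows where the rest lay. It was 2223, 1993, 7448 and 6586 CPM in the adult low, adult high, aged low and aged high fiber mouse over the 136 barcodes under 1%, and 1760, 1772, 2497 and 3147 over the 520, so both groups of barcodes were higher in aged mice, the former by far more. Without barcodes of over 10 microglia or astrocyte UMIs 8 of 28 members were called higher, with a median of 1.01. Over the 520 without such barcodes or doublet calls 10 of 25 were, with a median of 0.67. In the band of 2 to 4% contractile share described below 9 of 22 were, with a median of 0.76. The microglia markers given above were also higher in both aged mice over the 520, and beyond these settings their part in the result was not tested.

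*H2-T23*, which encodes the nonclassical MHC class I molecule Qa-1, had the lowest p of all genes. It stood at 13.9 and 14.8 CPM in the adult and 121 and 132 CPM in the aged mice (log2 fold change 3.13 ± 0.15, SE; adjusted p = 1.15e-05, edgeR). Over the 520 barcodes it stood at 16.5 and 12.5 against 30.1 and 50.4 CPM (1.42 ± 0.32; adjusted p = 0.0324), still without overlap. In the 2 to 4% band it was not called (1.19 ± 0.43; adjusted p = 0.189). *B2m*, the light chain of MHC class I, kept more of its difference, with 96.6 and 108 against 320 and 331 CPM over all barcodes (1.67 ± 0.11; adjusted p = 0.000146) and 118 and 133 against 283 and 326 over the 520 (1.27 ± 0.12; adjusted p = 0.000588). The class I heavy chains *H2-K1* and *H2-D1* were called in both (0.72 ± 0.17 and 0.80 ± 0.13 over the 520), as were *Psmb8*, a subunit of the immunoproteasome (1.30 ± 0.24), and *Irf1*, an interferon regulatory factor (1.92 ± 0.32). Genes of the H2, Ifit and Ifi27 families have near-identical copies whose reads counting can drop or split, so their levels are uncertain.

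*Isg15*, the ubiquitin-like interferon-stimulated protein, was among those that lost the call. It stood at 21.4 and 13.2 against 140 and 86.8 CPM over all barcodes (2.76 ± 0.26; adjusted p = 0.000855), and at 33.1 and 20.9 against 41.7 and 66.6 over the 520 (0.97 ± 0.28; adjusted p = 0.09). *Ifit1*, an RNA-binding antiviral protein, did likewise, from 3.27 ± 0.41 to 1.66 ± 0.45 (adjusted p = 0.0647). *Ifi27l2a*, an interferon-induced mitochondrial protein, had the largest called fold of the list, with 7.43 and 2.34 against 57.7 and 133 CPM over all barcodes (4.28 ± 0.50; adjusted p = 0.00181). Over the 520 it stood at 8.27 and 0 against 25.4 and 52.1 CPM and was called again (3.19 ± 0.67; adjusted p = 0.0212). *Ifi27* (0.69) and *H2-Q4* (0.99) were called over the 520 as well, while *Ifitm3*, *Ly6e* and *Gbp7* were not. *Oasl2*, *Irf7*, *Rtp4*, *Psmb9*, *Tap1* and *H2-Q7* were called over all barcodes and were too low in the 520 to be tested.

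Because members of this list moved together, their promoters were searched on both strands for GAAANNGAAA, the core of the interferon-stimulated response element. In windows of 300 bases (250 before to 50 after the start, RefSeq, GRCm38.p6) 11 of 25 members with a window held it, against 3.99% of all 27025 genes with a window, and 7 of the 16 members called higher over all barcodes did. The list was made of interferon and MHC class I genes, so its excess over all genes follows from its membership and bears on no age difference. The called members did not hold the motif more often than the list as a whole. A match is a run of letters and shows no binding. The windows of *H2-T23* (chr17:36032652-36032951, minus strand), *Isg15* (chr4:156200769-156201068, minus strand) and *B2m* (chr2:122147437-122147736, plus strand) are shown 5′ to 3′ as the members with the lowest p, the most matches and a call in both sets of barcodes, with matches on either strand in capitals.
H2-T23: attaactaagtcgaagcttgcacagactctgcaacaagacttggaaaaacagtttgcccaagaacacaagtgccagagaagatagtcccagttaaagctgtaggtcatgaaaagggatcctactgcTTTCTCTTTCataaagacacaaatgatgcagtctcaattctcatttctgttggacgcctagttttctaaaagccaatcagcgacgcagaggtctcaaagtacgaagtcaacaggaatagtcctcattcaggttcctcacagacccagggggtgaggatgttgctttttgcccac
Isg15: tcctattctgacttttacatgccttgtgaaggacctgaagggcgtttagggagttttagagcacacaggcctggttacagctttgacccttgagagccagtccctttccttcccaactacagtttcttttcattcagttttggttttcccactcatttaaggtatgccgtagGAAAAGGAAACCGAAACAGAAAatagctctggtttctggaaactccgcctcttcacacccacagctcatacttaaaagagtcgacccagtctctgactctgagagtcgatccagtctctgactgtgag
B2m: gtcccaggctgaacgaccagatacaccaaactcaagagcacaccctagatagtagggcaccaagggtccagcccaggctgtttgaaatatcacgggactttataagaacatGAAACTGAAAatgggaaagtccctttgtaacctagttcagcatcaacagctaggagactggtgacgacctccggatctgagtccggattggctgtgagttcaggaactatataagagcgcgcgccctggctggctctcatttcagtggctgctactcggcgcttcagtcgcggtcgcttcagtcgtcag
The match of *H2-T23* begins at -124 from the start and that of *B2m* at -139, while *Isg15* has overlapping matches from -78, -72 and -66.

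Of the matrix genes of the vessel wall, *Fn1*, *Mgp*, *Ogn* and *Bgn* were called higher in both sets of barcodes. Of 27 tested members 8 were called higher over all barcodes and 7 of 25 over the 520, with 0 lower in either and list medians of 0.33 and 0.19, so a minority of the list was called. The list median was 0.09 without the aged high fiber mouse over all barcodes, and likewise 0.09 in the band of 2 to 4% contractile share described below. *Fn1* (chr1:71585520-71653200, minus strand), which encodes fibronectin, a glycoprotein that links cells to matrix, stood at 19.97 and 31.9 against 139 and 136 CPM over all barcodes (2.38 ± 0.17; adjusted p = 0.000188). Over the 520 it stood at 36.7 and 55.9 against 222 and 212 CPM (2.22 ± 0.17; adjusted p = 0.000143), with both aged mice well above both adult mice.

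*Mgp*, matrix Gla protein, an inhibitor of arterial calcification, stood at 1529 and 1276 against 3903 and 3358 CPM over the 520 barcodes (1.37 ± 0.11; adjusted p = 0.000143). *Ogn*, the small proteoglycan osteoglycin, stood at 206 and 269 against 677 and 772 (1.60 ± 0.13; adjusted p = 0.000189), and *Bgn*, biglycan, at 243 and 358 against 637 and 823 (1.27 ± 0.17; adjusted p = 0.00232). The collagens *Col3a1* (1.75 ± 0.25) and *Col18a1* (1.31 ± 0.23) were called too, while *Hspg2*, the basement membrane proteoglycan perlecan, was called over all barcodes (0.81 ± 0.18) and not over the 520 (0.65 ± 0.23). *Spp1*, osteopontin, was called at 5.31 ± 1.30, but its values of 3.67 and 2.50 against 218 and 11.1 CPM rest mainly on the aged low fiber mouse. Of the 3 most abundant members *Mgp* was called, and *Sparcl1* and *Timp3* were not (-0.26 ± 0.08 and -0.25 ± 0.08). *Fn1*, *Mgp*, *Ogn*, *Bgn*, *Col3a1* and *Col18a1* were also called among barcodes of 2 to 4% contractile share. This band was added after the data were seen, to narrow the range of that share. Whether the ages had the same share within it was not tested. In the band 118 of 7523 genes were called higher (1.57%) and 71 lower (0.944%).

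Genes of the TGF-beta and BMP pathways, which steer matrix production and smooth muscle differentiation, were called higher in 4 of 23 tested members over all barcodes. Over the 520 5 were, with 0 lower in either. The list medians were 0.31 and 0.24, and 0.19 over all barcodes without the aged high fiber mouse. The matricellular growth modulators *Ccn1* (0.92 ± 0.18) and *Ccn2* (0.66 ± 0.16), the inhibitor of bHLH factors *Id2* (1.51 ± 0.38) and the inhibitory *Smad6* (1.98 ± 0.45) were among the members called over the 520. In the 2 to 4% band 4 of 21 were called higher, and *Ccn2* was not (0.61 ± 0.18; adjusted p = 0.0849). The list's most abundant member, *Id3*, was not called, and neither receptors nor ligands of the list were.

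Immediate early genes, transcription factors and regulators induced within minutes of a stimulus, were called higher in 19 of 24 tested members over all barcodes. Over the 520 14 of 24 were, with 0 lower in either and list medians of 0.83 and 0.75. Without barcodes of over 10 microglia or astrocyte UMIs 11 of 24 were, with a median of 0.89. Without the adult low fiber mouse the median was 0.82. *Fos*, an AP-1 subunit, stood at 1619 and 2085 against 3380 and 2547 CPM over the 520 barcodes (0.68 ± 0.14; adjusted p = 0.0185). *Junb* stood at 859 and 1185 against 1907 and 1787 (0.85 ± 0.13; adjusted p = 0.00492). Each aged mouse lay above each adult mouse for both genes, and the adult low fiber mouse was lowest for both. *Jun*, *Zfp36*, *Ier2*, *Cebpd*, *Gadd45b*, *Ier5* and *Maff* were also called in both sets of barcodes.

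*Egr1*, a zinc finger factor, was called at 1.39 ± 0.22, *Ier3* at 1.13 ± 0.11, *Klf2* at 0.89 ± 0.17 and *Socs3*, the feedback inhibitor of cytokine receptors, at 1.60 ± 0.30 over the 520 barcodes. *Socs3* stood at 61.6 and 129 against 370 and 202 CPM, with the aged low fiber mouse highest. *Atf3*, a stress-induced factor, varied most among mice of 1 age, with 71.7 and 219 against 607 and 281 CPM (1.62 ± 0.40; adjusted p = 0.0434). *Btg2*, *Dusp1*, *Klf6*, *Fosb* and *Nr4a1* were called over all barcodes and not over the 520, where their log2 fold changes ran from 0.44 to 0.58. In the band of 2 to 4% contractile share 11 of 23 were called higher.

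Contractile genes showed a smaller difference that depended on which barcodes were summed. Outside the 3 genes of the gate, 10 of 21 list members were called higher over all barcodes and 3 of 21 over the 520. In either 0 were lower, with medians of 0.59 and 0.43, and in the 2 to 4% band 1 of 20 was called with a median of 0.20. Without barcodes of over 10 microglia or astrocyte UMIs 4 of 21 were called higher, with a median of 0.56. The median was 0.45 without the adult low and 0.60 without the aged high fiber mouse. The gate selected on genes of the same apparatus, so these counts are a description. *Tpm2*, *Des*, *Actn1*, *Ppp1r14a*, *Vcl*, *Smtn* and *Pdlim7* were called over all barcodes and not over the 520. *Cnn1* (chr9:22099216-22109630, plus strand) was called over all barcodes, over the 520 and in the band. It stood at 177 and 296 against 561 and 734 CPM over the 520 barcodes (1.44 ± 0.20; adjusted p = 0.00275), with 1.02 ± 0.16 in the band. *Csrp1*, a LIM-domain protein of the actin cytoskeleton (0.74 ± 0.13), and *Itga8*, an integrin of contractile cells (0.62 ± 0.12), were the other called members over the 520. *Des*, desmin, stood at 770 and 833 against 1306 and 1075 CPM there and missed the fold limit (0.57 ± 0.10; adjusted p = 0.0122), and *Myl6*, the essential light chain, was not called (0.17 ± 0.08).

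Contractile genes are classical targets of serum response factor, which binds the CArG box. Only exact runs of CCWWWWWWGG, with W for A or T, were counted. Near matches that differ by a letter, such as CCCTATATGG in the window of *Acta2*, were not. In the 300-base windows 3 of 21 contractile members with a window held such a run (*Myl9*, *Myl6* and *Vcl*), against 1.81% of all 27025 genes with a window. Of the 11 members called higher over all barcodes 1 did. This list was made of contractile genes, so its share against all genes likewise bears on no age difference. Of the genes of the gate, *Acta2* is in these counts, while *Tagln* and *Myh11* are not among the members with a window. The window of *Myl9*, the regulatory light chain (chr2:156775214-156775513, plus strand), is shown as the example from the myosin light chains, with the box at -161 in capitals.
Myl9: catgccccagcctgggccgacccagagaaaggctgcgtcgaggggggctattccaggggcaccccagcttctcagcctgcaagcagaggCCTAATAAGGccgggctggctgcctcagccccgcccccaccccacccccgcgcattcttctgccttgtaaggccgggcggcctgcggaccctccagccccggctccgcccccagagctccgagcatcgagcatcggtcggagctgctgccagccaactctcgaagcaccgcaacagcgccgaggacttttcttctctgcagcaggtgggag

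Few calcium and ion channel genes were called. Over all barcodes 2 of 15 tested members were called lower and 1 higher, and over the 520 barcodes 4 of 13 lower and 0 higher, with medians of -0.10 and -0.47, and in the 2 to 4% band 3 of 12 were lower with a median of -0.28. *Ano1* (chr7:144588549-144751974, minus strand), the calcium-activated chloride channel that depolarizes smooth muscle, stood at 186 and 158 against 63.9 and 65.8 CPM over the 520 (-1.40 ± 0.14; adjusted p = 0.000638), and was called in the band too (-0.89 ± 0.18; adjusted p = 0.011). Its level was higher in the 515 pericyte barcodes (286 CPM without scaling) than in the 520 smooth muscle ones (117 ± 64.2, SD, n = 4 mice), and pericyte markers were lower in both aged mice as given above, whose part in this difference was not tested. *Kcna5*, a voltage-gated potassium channel that opposes contraction, stood at 135 and 118 against 64.5 and 50.4 (-1.11 ± 0.16; adjusted p = 0.00424). *Atp2b4*, a plasma membrane calcium pump (-0.64 ± 0.10), and *Trpc6*, a cation channel at low level (-2.18 ± 0.50), were the others. *Kcnma1*, the large-conductance potassium channel, was called higher over all barcodes (0.68 ± 0.15) and not over the 520 (0.34 ± 0.16), and *Pln* was called in neither.

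Among 19 vasoactive receptors and signalling genes tested over all barcodes 2 were called lower and 1 higher, with a median of -0.11. Over the 520 barcodes 4 of 17 were lower and 1 higher, with a median of -0.32, and in the 2 to 4% band 2 of 13 were lower and 0 higher. *Ednra*, the endothelin A receptor that drives constriction, stood at 198 and 146 against 96.2 and 99.9 CPM (-0.81 ± 0.15; adjusted p = 0.0146). Its level without scaling was higher in the pericyte barcodes, at 217 CPM against 133 ± 49.7 in the 520. *Calcrl*, the receptor of the dilator CGRP, was called at -1.33 ± 0.30. *Ednrb*, the endothelin B receptor, was called lower over all barcodes (-1.03 ± 0.23) and was too low in the 520 to be tested. The regulators of G protein signalling *Rgs5* (-1.04 ± 0.17) and *Rgs4* (-0.60 ± 0.14) were lower as well, *Rgs5* with 2704 and 1669 against 1036 and 1094 CPM. *Rgs5* is also a pericyte marker, and 4 of 10 tested pericyte markers were called lower over the 520, with a median of -0.53. *Ptger3*, a prostaglandin E2 receptor, was called higher at low level, with 9.19 and 8.34 against 23.2 and 40.1 CPM (1.79 ± 0.37; adjusted p = 0.0206). In the Notch list, whose pathway keeps arterial smooth muscle differentiated, 0 of 19 tested members were called over all barcodes, where *Notch3* missed the fold limit (-0.54 ± 0.12; adjusted p = 0.0381). Over the 520 barcodes 2 of 18 were lower, the receptor *Notch3*, with 549 and 485 against 274 and 334 CPM (-0.77 ± 0.12; adjusted p = 0.00528), and its target *Nrarp* (-1.04 ± 0.17). In the 2 to 4% band 0 of 18 were called, with *Notch3* at -0.50 ± 0.12 (adjusted p = 0.0268, under the fold limit) and *Nrarp* at -0.68 ± 0.19 (adjusted p = 0.0833). *Notch3* too stood higher in the pericyte barcodes, at 873 CPM without scaling against 405 ± 135 in the 520.

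Heat shock genes, chaperones that fold proteins, were called lower in 4 of 18 members over all barcodes and in 4 over the 520. The list medians were -0.47 and -0.27. Over all barcodes the median was -0.35 without the aged low and -0.54 without the aged high fiber mouse. *Dnaja1*, a co-chaperone of HSP70, stood at 396 and 310 against 178 and 174 CPM over the 520 (-0.999 ± 0.13; adjusted p = 0.00197). *Hsph1* (-0.91 ± 0.16), *Hsp90aa1* (-0.64 ± 0.09) and *Hspa1b* (-0.74 ± 0.14) were called with it. In the 2 to 4% band 3 of 18 were lower. There *Hsp90aa1* was under the fold limit (-0.53 ± 0.11; adjusted p = 0.0126) and *Hspa1b* was not called (-0.87 ± 0.24; adjusted p = 0.0678). *Hspa5*, the chaperone of the endoplasmic reticulum, was called lower over all barcodes (-0.70 ± 0.14) and not over the 520 (-0.32 ± 0.10). The small heat shock proteins *Hspb6* and *Hspb7* were called higher over all barcodes (0.76 ± 0.17 and 0.94 ± 0.19) and not over the 520 (0.64 ± 0.22 and 0.65 ± 0.20).

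Of 12 cytokine and inflammation genes tested over all barcodes 5 were called higher and 0 lower, with a median of 0.34, and without barcodes of over 10 microglia or astrocyte UMIs 1 of 11 was, with a median of 0.07. Of 10 cytokine and inflammation genes tested over the 520 barcodes 2 were called higher, *Nfkbia*, the inhibitor of NF-kB (0.88 ± 0.19), and *Ptgs2*, cyclooxygenase 2, with 0 and 4.17 against 44.9 and 56.4 CPM (4.46 ± 0.50, a value that depends on the added prior count; adjusted p = 0.000974). In the 2 to 4% band 1 of 9 was called higher, with a list median of -0.09, and *Nfkbia* was not (1.00 ± 0.26; adjusted p = 0.0555). The complement genes *C3* (1.74 ± 0.16) and *C4b* (2.79 ± 0.35) were called over all barcodes and were too low in the 520 to be tested. *Tnfrsf12a*, the receptor of the cytokine TWEAK, was called over all barcodes (0.89 ± 0.19) and not over the 520 (0.79 ± 0.23). Of 14 senescence genes tested over the 520 barcodes 2 were higher, *Igfbp4* (1.11 ± 0.17) and *Igfbp2* (1.24 ± 0.25), and over all barcodes 3 of 15 were higher and 1 lower. *Igfbp4* was called in both and *Igfbp2* was not over all barcodes (-0.10 ± 0.36). There *Igfbp7* (0.70 ± 0.09) and *Gdf15* (2.01 ± 0.41) were called higher and *Ccnd1*, cyclin D1, lower (-0.92 ± 0.21). Of 21 antioxidant and metal response genes 1 was called higher over all barcodes, *Fth1* (0.76 ± 0.09), with a list median of 0.07. Within the 520, 4 of 18 were higher with a median of 0.21, namely *Fth1*, the ferritin heavy chain, with 4585 and 5460 against 9337 and 9749 CPM (0.93 ± 0.09; adjusted p = 0.000588), the metallothioneins *Mt1* (1.30 ± 0.16, against 0.22 over all barcodes) and *Mt2* (1.47 ± 0.30, against 0.16), and *Txnip* (0.74 ± 0.13, against 0.31).

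**Figure D3:**
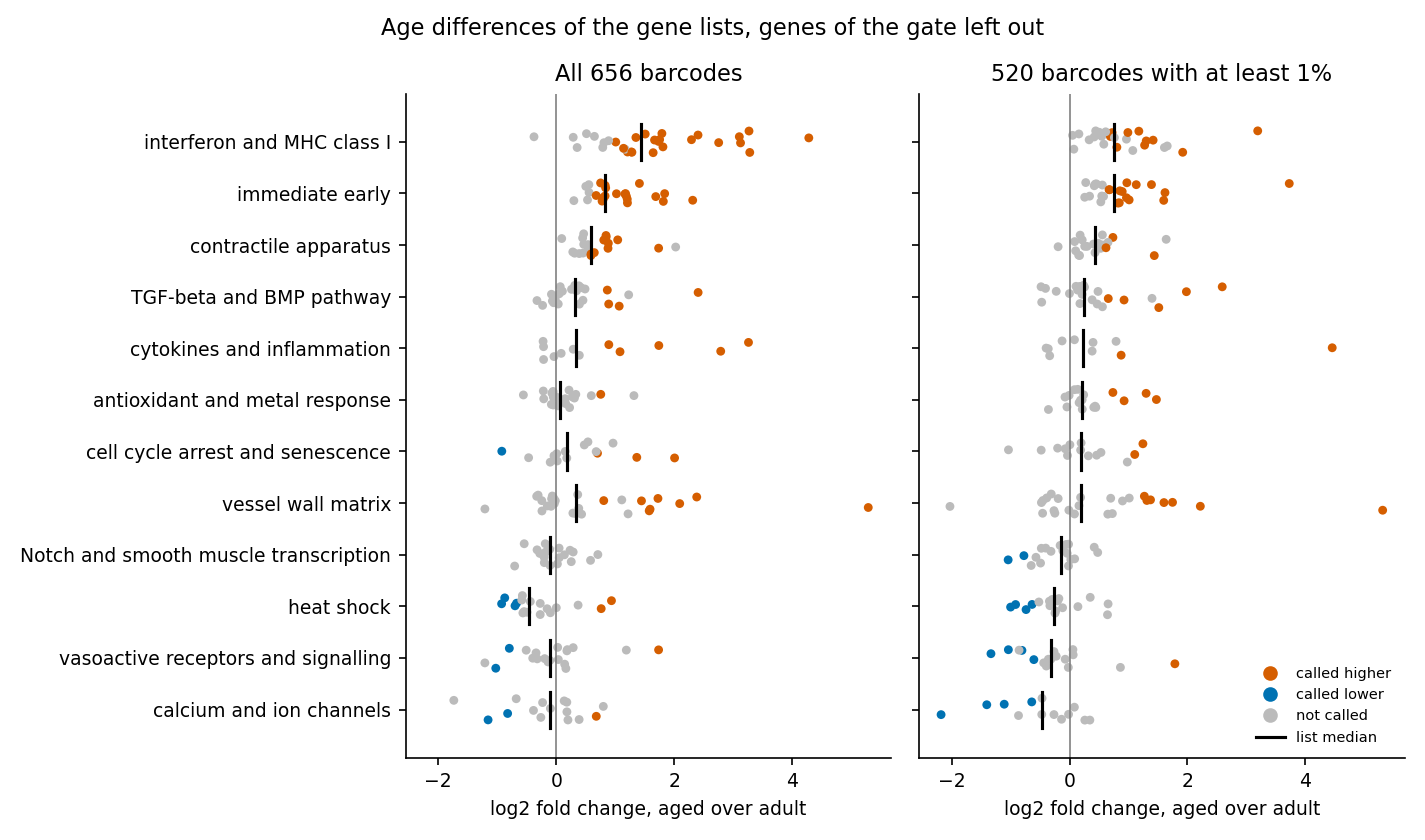
Log2 fold change, aged over adult, of each tested member of the 12 gene lists (genes of the gate left out), over all 656 barcodes and over the 520 with at least 1% contractile UMIs. Points are genes, coloured by call, and black bars are list medians. The interferon median moves from 1.43 to 0.76 between the panels, and the immediate early median from 0.83 to 0.75.

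Among genes with a mean of at least 50 CPM, *Olfr558* (chr7:102702215-102712064, plus strand), an odorant receptor gene, had the largest called fall over all barcodes. It stood at 101 and 97.0 against 30.1 and 25.01 CPM over all barcodes (-1.82 ± 0.14; adjusted p = 0.000203) and at 183 and 173 against 44.9 and 34.2 over the 520 (-2.13 ± 0.16; adjusted p = 0.000143). *Ackr3*, a chemokine scavenger receptor, stood at 259 and 192 against 74.5 and 85.4 CPM over the 520 (-1.50 ± 0.16; adjusted p = 0.000959). Its level was higher in the pericyte barcodes of every mouse, as given below, and the part of pericyte RNA was not tested. *Pcdh18*, a protocadherin (-1.36 ± 0.20), *Nrip2*, a nuclear receptor cofactor (-1.18 ± 0.15), and *P4ha1*, a collagen prolyl hydroxylase (-0.83 ± 0.20), were called lower in both as well, the last in 8 of 16 alternatives.

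The astrocyte genes *Aldoc*, *Slc1a2* and *Slc1a3* were also among the 12 genes of at least 50 CPM that fell most over all barcodes, at -1.17 ± 0.19, -0.98 ± 0.15 and -0.84 ± 0.19. Without barcodes of over 10 microglia or astrocyte UMIs none of them was called, with *Aldoc* at -0.42, *Slc1a2* turned to 0.31 and *Slc1a3* at -0.56. The microglia UMIs of this setting are those of *C1qa*, *C1qb* and *C1qc*, and the astrocyte UMIs those of *Slc1a2*, *Aldoc* and *Gja1*. It therefore limits *Aldoc* and *Slc1a2* directly, and their values under it are no test of their age difference. *Slc1a3* was called in 8 of 16 alternatives, in which it ran from -1.85 to -0.14. The connexin gene *Gjb6*, an astrocyte marker of 14.1 CPM chosen after its values were seen, was called lower by more than *Olfr558* (-1.89 ± 0.28; adjusted p = 0.00483). *Ptn*, pleiotrophin, stood at 335 and 96.8 against 70.3 and 58.1 CPM over the 520 (-1.71 ± 0.43; adjusted p = 0.0446), with the adult low fiber mouse far above the rest. Of the genes called higher, *Lgals3bp*, a secreted galectin-binding glycoprotein, was called again over the 520 (2.02 ± 0.33), *Ifit3* was too (1.18 ± 0.28), and *Ifit3b* was not (0.98 ± 0.52). *Gfap*, an astrocyte filament gene, was called over all barcodes (1.95 ± 0.35) and too low for testing in the 520. *Lyz2*, a myeloid lysozyme gene, was called higher in both (3.16 over the 520), and the part of myeloid RNA in these results was not tested beyond the settings without such barcodes.

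To see how the members vary among themselves, the 520 barcodes of each mouse were split into low, middle and high parts of equal size by contractile share, a description since the split uses the genes of the gate. Of 1576 genes with at least 100 CPM, 385 were higher in the high than in the low part in all 4 mice and 354 were lower. *Cnn1* ran from 131 CPM in the low through 288 in the middle to 749 in the high part, *Ptgis*, prostacyclin synthase, from 280 to 902, and *Sorbs2* from 604 to 1789. *Rgs5* ran from 3430 down to 461 CPM, *Vtn*, a pericyte-secreted protein, from 1610 to 202, *Ano1* from 264 to 34.1, and the microglial gene *C1qa* from 510 to 31.1. Each aged mouse lay above each adult mouse for *Cnn1* in each part, from 17.3 and 50.2 against 225 and 231 CPM in the low part to 369 and 521 against 908 and 1197 in the high part. The parts were formed within each mouse, so those of aged mice also had the higher contractile share, with medians of 1.53 and 1.80 against 2.37 and 2.12% in the low and 2.62 and 2.74 against 3.93 and 3.47% in the middle part.

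**Figure D4:**
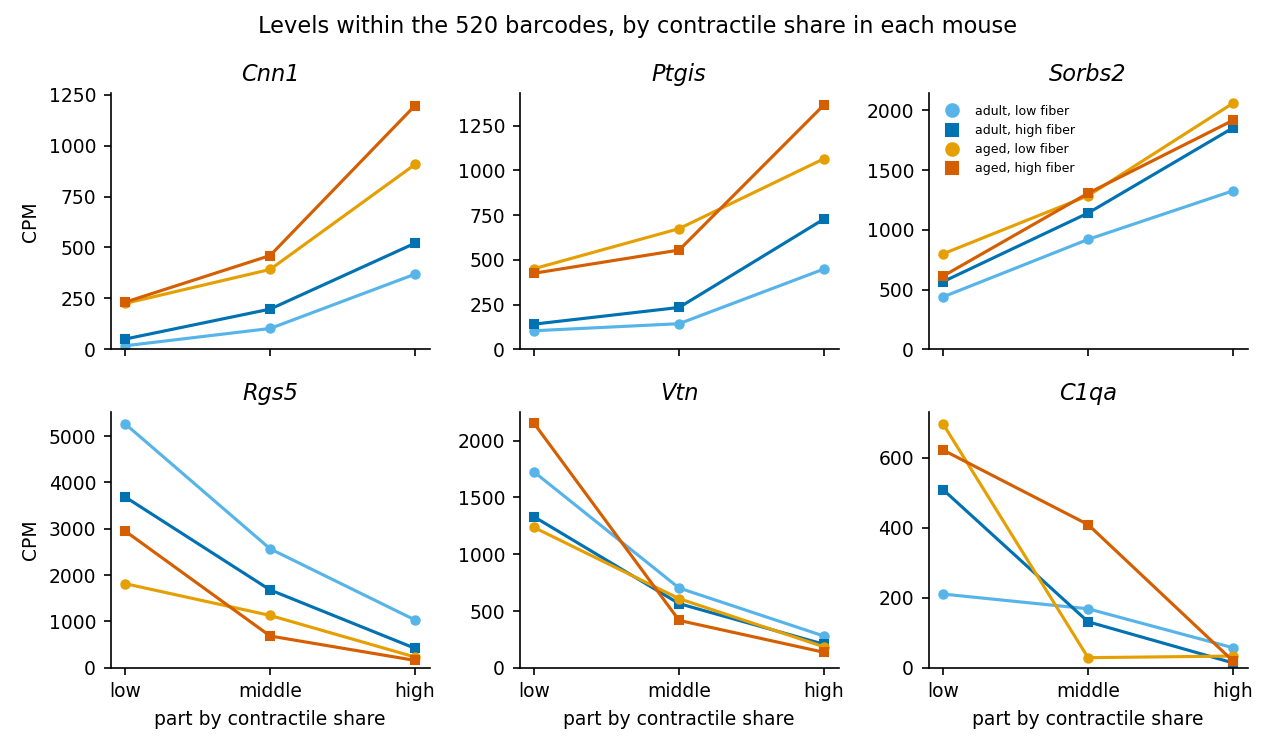
CPM without scaling of 6 genes in the low, middle and high part by contractile share of the 520 barcodes, 1 line per mouse, each axis starting at 0. *Cnn1*, *Ptgis* and *Sorbs2* climb toward the high part and *Rgs5*, *Vtn* and *C1qa* decline. *C1qa* in the middle part ranges from 29.0 to 409 CPM among mice.

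The age difference was then set against that of neighbouring vascular cells of the same mice, as the class by age term of an edgeR fit with the mouse as a block. Against the pericyte gate of 640 barcodes, 3 of 13066 genes had a higher (0.023%) and 14 a lower age difference in the 656 gated barcodes (0.107%), with 1246 at an unadjusted p under 0.05. That pericyte gate held barcodes of up to 186086 UMIs, and between the 520 smooth muscle and the 515 pericyte barcodes 38 of 9995 were higher (0.38%) and 22 lower (0.22%). *Ackr3* had the lowest p there, with 253 and 188 against 74.4 and 83.3 CPM in smooth muscle and 299 and 245 against 388 and 380 in pericytes (difference of log2 fold changes -2.02 ± 0.22; adjusted p = 3.64e-05). *Gpc3*, a glypican (-2.23 ± 0.28), *Cox4i2* (-1.51 ± 0.23) and *Ndufa4l2* (-1.44 ± 0.23), mitochondrial proteins rich in mural cells, and *Ano1* (-1.33 ± 0.22) followed. Each of these genes stood higher in the pericyte than in the smooth muscle barcodes of every mouse. *Ndufa4l2*, also a pericyte marker, stood at 303 and 222 against 103 and 156 CPM in smooth muscle and 1041 and 1248 against 1256 and 1727 in pericytes. Pericyte markers were lower in the 520 barcodes of both aged mice as given above, and their part in these differences was not tested.

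In the other direction *Lyz2* had the lowest p (4.03 ± 0.53), with smooth muscle values that rest mainly on the aged low fiber mouse. After it came *S100a6*, a calcium-binding protein (2.68 ± 0.39), *Bgn* (1.47 ± 0.22), *Id2* (2.81 ± 0.41) and *Ogn* (1.99 ± 0.31). *Bgn* stood at 237 and 351 against 637 and 802 CPM in smooth muscle, and at 467 and 534 against 426 and 433 in pericytes, so only the smooth muscle values separated upward with age. Of 26 matrix genes tested in these 520 and 515 barcodes 6 had a higher age difference than in pericytes (*Aspn*, *Bgn*, *Col3a1*, *Mgp*, *Ogn* and *Spp1*). The smooth muscle values of *Spp1* rest mainly on the aged low fiber mouse. Of 24 immediate early genes 2 had a higher one (*Ier3* and *Zfp36*), and of 30 interferon genes 1 did (*Ifi27l2a*). Over all barcodes of both gates 0 of 29 matrix, 0 of 24 immediate early and 0 of 30 interferon genes did.

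Against the gate of 9612 endothelial barcodes, 34 of 17211 genes had a higher (0.198%) and 11 a lower age difference over all gated barcodes (0.0639%), and 159 (0.988%) and 128 (0.795%) of 16096 did over the 520. *Fn1* had the lowest p over the 520, with 832 and 767 against 756 and 656 CPM in endothelial barcodes, close together, beside its difference in smooth muscle (2.41 ± 0.19; adjusted p = 4.14e-07). *Ogn* (1.99 ± 0.17), *Igfbp2* (2.22 ± 0.19), *Ctsh*, a lysosomal protease (2.01 ± 0.20), and *Prlr*, the prolactin receptor (2.82 ± 0.30), followed. The value of *Igfbp2* comes from both sides, with 36.7 and 59.7 against 94.5 and 143 CPM in smooth muscle and 483 and 493 against 196 and 324 in endothelial barcodes. The endothelial gate had no minimum share and held barcodes of up to 199886 UMIs. *Ackr3* (-1.78 ± 0.18), *Cox4i2* (-2.01 ± 0.22), *Ntn4* (-1.24 ± 0.14), *Cspg4* (-1.28 ± 0.14) and *Ndufa4l2* (-1.80 ± 0.21) led the lower ones. *Cspg4* and *Ndufa4l2* are also pericyte markers, and the part of pericyte RNA in these differences was not tested.

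By list, 8 of 25 immediate early genes, 5 of 30 matrix genes and 3 of 31 interferon genes (*B2m*, *Irf1* and *Psmb8*) had a higher age difference in the 520 smooth muscle barcodes than in endothelial ones, and 0 a lower one. Over all barcodes the order was another, with 1 of 25, 3 of 31 and 7 of 31 in these lists. Of the Notch list 4 of 20 (*Hey2*, *Mef2c*, *Notch3* and *Tbx2*), of the vasoactive list 5 of 19 and of the ion channel list 3 of 15 had a lower one over the 520, and 0 a higher one, against 0 of 20, 0 of 19 and 2 of 15 lower over all barcodes. Over all barcodes the count of 45 genes in all fell to 0 without the adult low fiber mouse, to 15 without the adult high or the aged low fiber mouse, and rose to 123 without the aged high fiber mouse. In each of these fits 1 age keeps a single mouse, which is assumed to vary like the other age's pair.

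**Figure D5:**
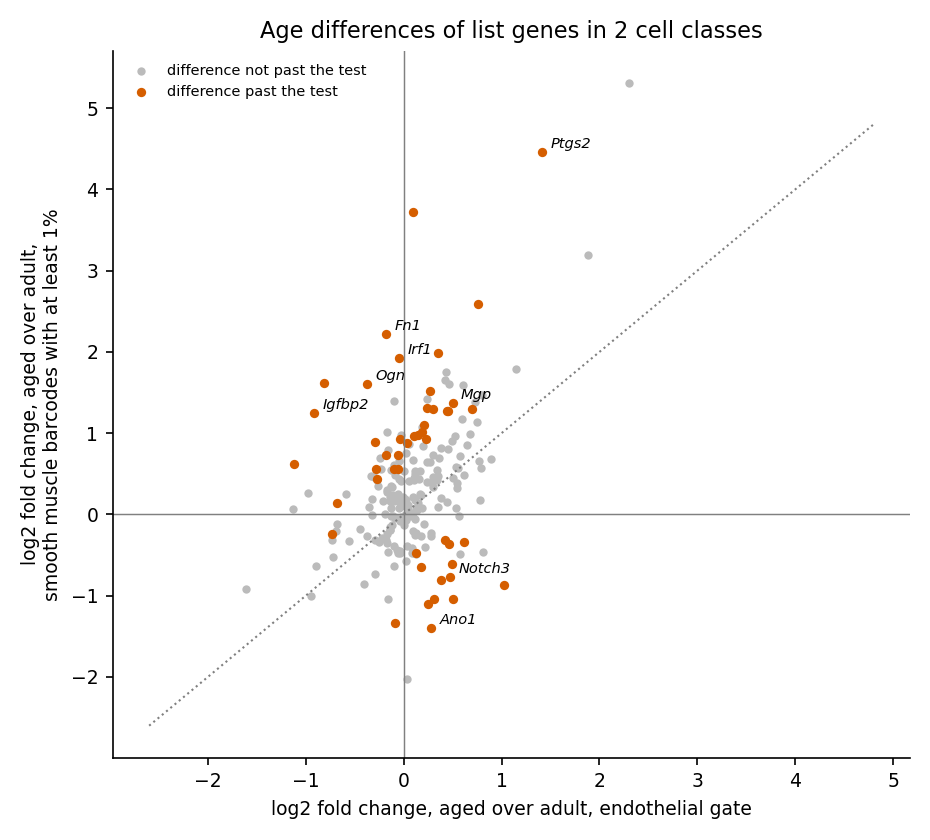
Log2 fold change, aged over adult, of 221 list genes in the 520 smooth muscle barcodes (y axis) against the endothelial gate (x axis) of the same 4 mice. Coloured points are the 47 genes whose difference between the classes passed the edgeR test at an adjusted p of 0.05, and the dotted line marks equal changes. *Fn1* and *Ogn* lie above the line and *Ano1* and *Notch3* below it.

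Dietary fiber gave no call with ages pooled. High against low fiber, 0 of 12297 genes were called higher (0%) and 0 lower (0%) over all barcodes by edgeR, with 344 at an unadjusted p under 0.05, while DESeq2 called 7 lower. With age as a block edgeR called 16 higher (0.13%) and 75 lower (0.61%). Lowest in p were *Ttr* and *Sostdc1*, followed by *Spp1*. *Ttr* stood at 57331 and 13563 CPM in the adult low and high fiber mouse and 35289 and 15426 in the aged low and high fiber mouse. *Ttr* made up most of the choroid plexus marker sums given above. Another of these markers, *Enpp2*, stood at 3617 and 1266 CPM in the adult pair and at 1389 and 1240, close together, in the aged pair. *Ttr* was not called over the 520 barcodes (log2 fold change -0.04; adjusted p = 0.99). Over the 520 with age as a block 0 genes were called higher (0%) and 1 lower (0.0108%), *Spp1* (-3.96 ± 0.37; adjusted p = 0.00674), whose values rest on the aged low fiber mouse.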

How the data were processed

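Counts were deposited by the authors as whole-number UMI counts per gene and barcode, 1 matrix per mouse, made with Cell Ranger 3.1.0 against GRCm38 and not normalized. Libraries held 115814810, 111648775, 88248117 and 108131200 UMIs in 9246, 10256, 7881 and 9493 barcodes (adult low, adult high, aged low and aged high fiber). The mitochondrial limit lay 3 scaled median absolute deviations (factor 1.4826) over the pooled median of all barcodes. UMIs were summed per mouse over gated barcodes. Sums were filtered with filterByExpr, TMM-scaled and tested with edgeR 4.0.16 (quasi-likelihood, Benjamini-Hochberg adjustment over all genes tested). Standard errors were obtained by dividing the absolute log2 fold change by the root of its F statistic. DESeq2 1.42.0 was an alternative. Doublets were scored with Scrublet in scanpy 1.11.5 (expected rate 0.08) and kept in, and 10, 9, 10 and 5 gated barcodes were called. The pericyte gate asked for at least 10 UMIs of *Vtn*, *Higd1b* and *Kcnj8*, under 20 of *Acta2*, *Tagln* and *Myh11*, and at most 10 of the endothelial and of the fibroblast genes. The endothelial gate asked for at least 20 of *Cldn5*, *Flt1* and *Ly6c1* and at most 10 of the contractile and of the fibroblast genes. Shares were compared with exact two-sided permutation tests over mice. Confidence intervals are exact (Clopper-Pearson). Coordinates come from GENCODE on GRCm38, in which 55394 of 55573 identifiers were found. The scripts were tested on simulated data.

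Named were the 12 genes per direction with the largest called fold, a mean of at least 50 CPM and no overlap between ages, the called and the 3 most abundant members of each list, the genes with the highest fold over other cells, and the 5 lowest p per direction of each class by age test. Some genes that met these rules are not reported here. Gated cells, lists and tests were chosen with earlier results of these data known. The 1% and 2 to 4% divisions, the 3 equal parts of the 520 barcodes and the pericyte minimum of 0.5% were chosen after seeing the data. Sex comes from the methods of the study. Each age and diet combination is 1 mouse, so p-values measure the spread between 2 mice of an age on different diets.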

Additional observations from a re-analysis of the deposited data

Results flagged for a closer look

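The age difference (log2 fold change, aged over adult) of some genes differed between all 656 gated barcodes, 136 of which had under 1% contractile UMIs, and another vascular cell class of the same mice, by the class by age term of edgeR. Against pericytes it was higher in the gated barcodes for *Lyz2* (by 4.10, with gated values that rest mainly on the aged low fiber mouse) and *Gpr37l1* (by 1.74). It was lower for *Slc7a11* (-3.82), *Ackr3* (-2.16), *Car4* (-2.30), *Gpc3* (-2.64) and *Serpini1* (-1.82). Between the 520 gated barcodes of at least 1% and the 515 pericyte barcodes all of these passed again except *Gpr37l1* (0.77; adjusted p = 0.835) and *Slc7a11* (-0.31; adjusted p = 0.983). *Cybb* passed as well (adjusted p = 0.0341), but with 1 UMI in adult gated barcodes and 0 in aged pericytes it has no usable fold. Against endothelial cells it was higher for *H2-T23* (2.90), *Fn1* (2.58), *Camp* (4.57) and *Oasl2* (2.83), and lower for *Ptn* (-1.48), *Ddah1* (-2.84), *Ano1* (-1.44), *Gpc3* (-1.89) and *Ntn4* (-0.98). In the 520 barcodes *H2-T23* (1.18; adjusted p = 0.0639), *Oasl2* (0.96; adjusted p = 0.707) and *Ddah1* (-0.64; adjusted p = 0.833) did not pass, and the others did. *Camp*, a neutrophil granule gene, had 10 and 22 UMIs in adult and aged gated barcodes and 3091 and 187 in endothelial barcodes, so its value comes from the endothelial side.

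The share of gated barcodes differed between diets in opposite directions at the 2 ages, with high minus low fiber at 0.161 percentage points for the adult and -0.984 for the aged pair. With 1 mouse per diet and age this difference was not tested. Among the 520 barcodes the directions were not opposite, with shares of 1.47 and 1.47% in the adult low and high fiber mouse and 2.35 and 1.55% in the aged ones. No group held the 4 mice needed to look for an outlying sample.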

How the results depend on the processing

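Alternatives moved the counts of genes more than the directions. Genes called higher in aged mice (253) numbered 137 with DESeq2, 455 without the filter on low counts, 156 without TMM, 382 with diet as a block, 151 without barcodes of over 10 microglia or astrocyte UMIs, 0 at a gate of 50 UMIs, 151 when thinned to 2000 UMIs and 118 at 2 to 4% contractile share, and 150 to 229 with a mouse left out (150 without the adult low, 164 without the aged high fiber mouse). Genes called lower (111) numbered 38, 294 and 238 with DESeq2, no filter and the block, 227 within an upper UMI limit, 0 at the gate of 50, 181 at 1% without doublets and other cells, 71 at 2 to 4%, and 41 to 133 with a mouse left out (41 without the aged low, 53 without the aged high, 61 without the adult low fiber mouse). Over the 520 barcodes leaving out a mouse gave 64 to 265 higher and 22 to 217 lower, with 84 and 46 without the adult low, 64 and 23 without the aged low and 67 and 22 without the aged high fiber mouse. Diet calls (0) numbered 7 with DESeq2, 107 without the filter, 91 with age as a block, 1 at 1% with that block, and 0 to 73 with a mouse left out (63 without the adult low, 73 without the aged low fiber mouse). Class by age calls against pericytes (17) numbered 363 without the filter, 9 without doublets, 38 without other cells, 60 at 1%, and 26 to 603 with a mouse left out (26 without the adult high, 79 without the adult low, 144 without the aged high, 603 without the aged low fiber mouse). Against endothelial cells (45) they numbered 455, 106, 69, 287 and 0 to 123 in the same order.

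The difference in barcode share between ages (0.299 percentage points) ran from -0.193 without the aged low fiber mouse, reversed, to 0.791 without the aged high fiber mouse. *Slc1a2* turned to 0.31 without other cells and to 0.16 with at least 1% besides, but its own UMIs are among those that these settings limit. The cause of these changes was not tested. The other 23 named genes kept their sign in each alternative that could be computed, and all 24 lost their call at the gate of 50 UMIs. No paired analysis was possible because by replicate number each combination of age and diet holds 1 mouse, all of them replicate 1. Diet and age served as blocks instead, with the counts given above, and the high minus low fiber differences of the ages correlated at 0.0914. The effect of diet at a single age could not be tested with 1 mouse per diet. With a mouse left out 1 age keeps a single mouse, which is assumed to vary like the pair of the other age. The depth limits genes of few UMIs most, and those removed by the filter were not tested.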
